A study of Mus musculus with 8 samples.

Results

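Pvalb, Spp1, Calb1, Calb2, Slc17a7, Slc17a8, Th and Nptx1 are 8 of the 24421 genes in the counts table, taken by symbol as markers of large-fibre, mechanoreceptive and calcium-buffering sensory neurons. RNA came from L3 to L5 dorsal root ganglia (DRG) of male C57BL/6J mice, given as 8 weeks old in the series' design (the methods name the substrain C57/Bl6JRj and an age range that starts there). The titles of all 8 libraries carry the label WT, for wild type. The 0d animals were naive, and the others had received 20 µl of 1% carrageenan, a seaweed polysaccharide that inflames tissue, under the skin of the left hind paw 1, 3 or 30 days earlier (1d, 3d and 30d). There were 2 libraries per time point, each made from a pool of 2 to 3 mice, so every error and p-value measures the spread between pools. The labels call the cells DRG neurons, but whole ganglia were dissected, and genes of glia, macrophages and muscle were also counted. All 8 genes passed the filter on low counts. They were chosen by name with earlier results of these data known, so the tests below describe these genes and no conclusion is drawn from how many passed.

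DRG neurons carry touch, body position, temperature and pain from the periphery to the spinal cord. Proprioceptors and many touch receptors have large, myelinated axons rich in neurofilament, and several of them hold the calcium-binding proteins parvalbumin, calbindin or calretinin, which shape calcium transients. C-fibre low-threshold mechanoreceptors have thin, unmyelinated axons and are known for tyrosine hydroxylase and vesicular glutamate transporter 3. All these neurons release glutamate, which vesicular transporters load into synaptic vesicles.

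The total was 44123208 to 73580338 counts per library, and the least counted value of any of the 8 genes was 605 counts, for Slc17a8. Levels are given in CPM, counts scaled to the size of the library. The correlation of log2 CPM between replicates was lowest at 30d (0.979) and highest at 3d (0.993). The 30d libraries also stood apart in glial genes, as given beside Spp1. The 12 large-fibre and proprioceptor genes used as a check of cell identity were all above 1 CPM in some library and summed to between 15851 and 17551 CPM, led per kilobase of exon by the neurofilaments Nefl, Nefm and Nefh. The 10 nociceptor genes summed to between 5299 and 6084 CPM, led by Prph, Calca and Tac1. The ganglia thus held RNA of both kinds of neuron. In bulk RNA, fewer cells of a type and less RNA per cell cannot be told apart.

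At 3d, parvalbumin RNA was 20.2% below 0d and Nptx1 RNA 26.1% above it. These were the only members of the 8 that passed the test in that comparison (edgeR quasi-likelihood test, Benjamini-Hochberg adjusted p under 0.05 over 17328 genes). Over all tested genes the share called was 0.219% (0.19% higher and 0.0289% lower). The log2 fold change was negative for 7 of the 8 genes, with a median of -0.097, beside -0.0021 over all genes. At 1d and at 30d no member passed against 0d. From 3d to 30d Nptx1 alone passed, and fell by 24.9%.

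**Figure D1:**
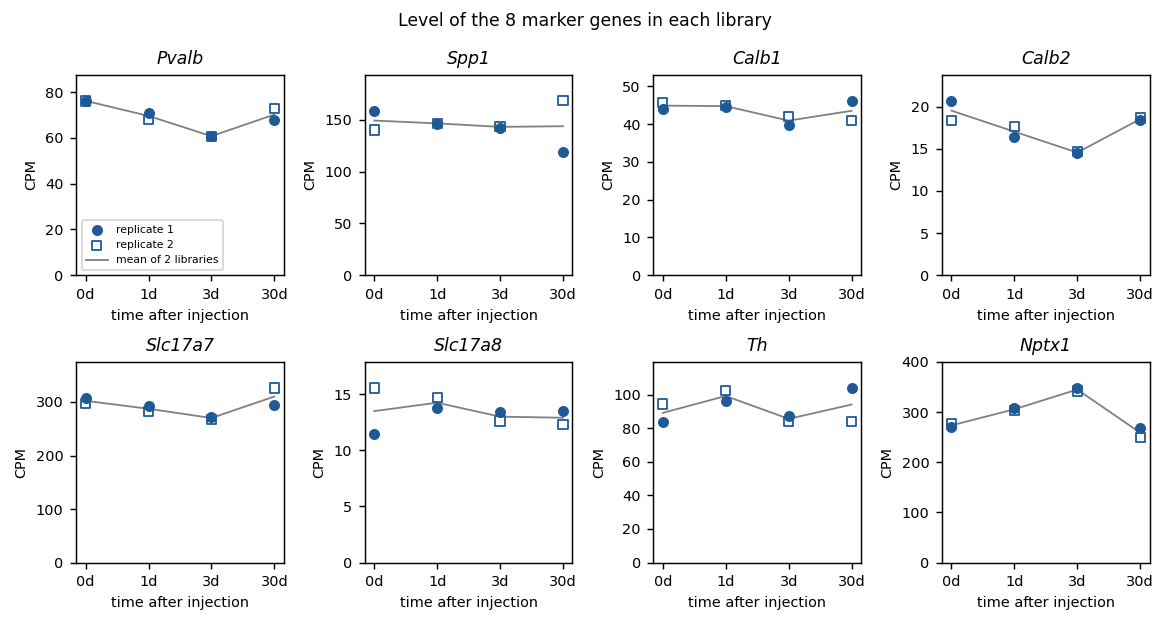
Level of each of the 8 genes in each library, in CPM on axes that start at 0, against time after injection; points are the 2 pooled libraries of a time point and lines join their means. Both 3d libraries lie below every other library for Pvalb, Calb2 and Slc17a7, and above every other library for Nptx1.

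Scaled to exon length, the most abundant of the 8 transcripts was Slc17a7, at a mean level of 99.5 CPM per kilobase over the 8 libraries. Spp1 followed at 87.9, Pvalb at 76.6, Nptx1 at 56.0 and Th at 52.4 CPM per kilobase. Calb1 (15.2), Calb2 (12.2) and Slc17a8 (3.01) were lower. At 0d these length-scaled levels put Slc17a7, Spp1 and Pvalb at or above the 95th percentile of tested genes (96.3, 95.5 and 95.1), and Slc17a8 at the percentile of 36.3. Several neighbours in this order did not differ beyond their spread. Spp1 ran from 71.9 to 102 CPM per kilobase in the 30d libraries, a range that held both 30d values of Pvalb (74.8 and 80.6) and the lower of those of Slc17a7 (100.1). At 0d, Nptx1 (51.8 ± 0.736, SD, n = 2) and Th (50.8 ± 4.24) also overlapped.

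**Figure D2:**
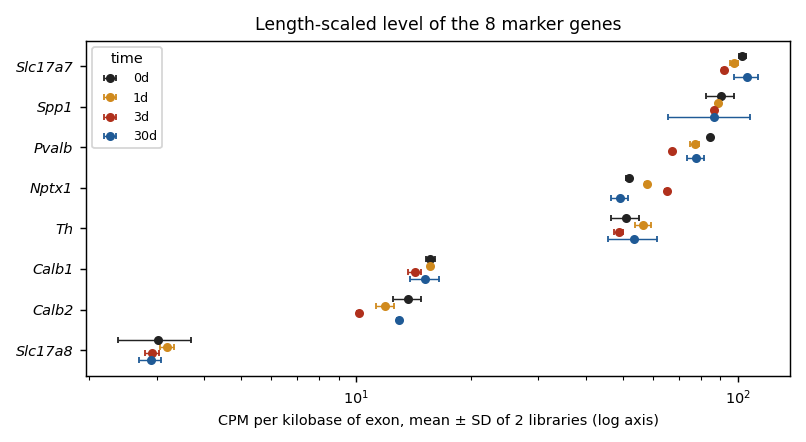
Length-scaled level of the 8 genes, in CPM per kilobase of exon on a log axis, as the mean ± SD of the 2 libraries of each time point. Slc17a7, Spp1 and Pvalb lie highest and Slc17a8 lowest at every time point, and Nptx1 is separated from Th at 3d.

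Parvalbumin, the product of Pvalb (mm10 chromosome 15, 78191118 to 78206351, minus strand), is a fast calcium buffer of proprioceptors and some touch receptors. Of the 8 genes, 5 had an upstream sequence in the set of promoters searched (RefSeq, GRCm38.p6): Pvalb, Spp1, Slc17a7, Slc17a8 and Th. The others had no entry in that set, which does not mean that RefSeq lacks them. The 250 bases before a RefSeq start are printed for the member that fell (Pvalb, chr15:78206401-78206650, minus strand), the most abundant one (Slc17a7, chr7:45163671-45163920, plus strand) and the catecholamine enzyme gene (Th, chr7:142899996-142900245, minus strand), so that their base composition can be compared. Capitals mark exact matches, on either strand, to the cAMP response element TGACGTCA or the GC box GGGCGG.
Pvalb: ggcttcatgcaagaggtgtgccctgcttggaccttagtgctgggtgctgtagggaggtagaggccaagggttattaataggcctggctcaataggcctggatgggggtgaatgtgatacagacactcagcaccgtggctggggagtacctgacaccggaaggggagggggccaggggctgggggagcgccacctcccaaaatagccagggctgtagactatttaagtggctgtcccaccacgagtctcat
Slc17a7: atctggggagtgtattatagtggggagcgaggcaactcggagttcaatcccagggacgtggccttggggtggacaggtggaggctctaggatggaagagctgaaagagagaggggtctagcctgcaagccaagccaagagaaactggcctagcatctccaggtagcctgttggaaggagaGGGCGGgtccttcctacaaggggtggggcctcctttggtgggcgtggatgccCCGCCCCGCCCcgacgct
Th: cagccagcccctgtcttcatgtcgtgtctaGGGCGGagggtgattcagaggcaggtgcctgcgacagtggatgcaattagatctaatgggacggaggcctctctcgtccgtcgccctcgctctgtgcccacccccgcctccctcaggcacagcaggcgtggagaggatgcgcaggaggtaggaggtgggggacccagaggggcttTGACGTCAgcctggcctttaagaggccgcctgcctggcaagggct
Th held the response element 45 bases before the start, and 1.55% of 32851 promoters of the same length hold these letters. It also held a GC box at 220 bases. Slc17a7 held 3 GC boxes, at 70, 18 and 13 bases, a motif present in 32.7% of promoters. The Pvalb stretch matched neither motif, nor the TATA box TATAAA (12.4% of promoters) or the RUNX core TGTGGT (14% of promoters). Pvalb, Spp1 and Slc17a8 each had a further start in the set. At 1 Spp1 start (chr5:104434861-104435110, not printed) the TATA box letters lay 211 bases and the RUNX core 128 bases before the start. The other Spp1 stretch (chr5:104435942-104436191) matched none of the motifs searched. The Pvalb stretch not printed (chr15:78204238-78204487) also matched none, and was 71.6% G and C, against 58.4% in the one printed. A match is a description of letters and not of a bound site.

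The level of Pvalb was 76.2 and 76.1 CPM in the 0d libraries, 71.0 and 68.1 in those of 1d, 60.7 and 60.7 in those of 3d, and 67.6 and 72.7 in those of 30d. Both 0d libraries were above all others and both 3d libraries below all others, while the 1d and 30d libraries overlapped. Against 0d, Pvalb fell by 0.33 on the log2 scale at 3d (SE 0.055, 95% interval -0.44 to -0.21, edgeR adjusted p = 0.0237). The call was lost when edgeR was run without robust estimation (adjusted p = 0.0547). It was also lost without 0d replicate 1, 0d replicate 2, 3d replicate 1 or 3d replicate 2 (adjusted p = 0.100, 0.0668, 0.484 and 0.503), although the log2 fold change stayed between -0.33 and -0.32. At 1d the log2 difference from 0d was -0.13 (interval -0.25 to -0.012, edgeR adjusted p = 1.00), and at 30d it was -0.12 (interval -0.23 to -0.00033, edgeR adjusted p = 0.406). Both are values that did not pass the test. From 3d to 30d the log2 difference was 0.21 (interval 0.091 to 0.33, edgeR adjusted p = 0.103), and DESeq2 called it (adjusted p = 0.0497).

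Skeletal muscle also contains parvalbumin, in its fast fibres, and muscle can adhere to a dissected ganglion. The 22 skeletal muscle genes measured here summed to 254 and 137 CPM in the 0d libraries, 67.4 and 120 in those of 1d, 124 and 121 in those of 3d, and 206 and 58.9 in those of 30d. All 22 had a negative log2 fold change at 3d against 0d, with a median of -0.69, beside -0.0021 over all genes. Of them 1, the fast myosin gene Myh1, passed (log2 fold change -1.61, SE 0.270, edgeR adjusted p = 0.0237), where 0.0289% of all genes were called lower. None of the 22 was at 0 in every library. Myh1 was also lower at 1d against 0d (-1.47, edgeR adjusted p = 0.0324) and higher at 30d against 3d (1.35, edgeR adjusted p = 0.0292). In these comparisons 0.346% and 0.935% of all genes were called. The list was led per kilobase by Acta1, Ckm and Tnnt3. Acta1, the muscle actin gene, differed 8.61-fold between its highest and lowest library, against 1.26-fold for Pvalb. The 0d libraries differed 1.86-fold in summed muscle RNA and held 76.2 and 76.1 CPM of Pvalb. Those of 30d differed 3.50-fold and held 67.6 CPM of Pvalb beside the higher muscle sum and 72.7 beside the lower. The part of muscle RNA in the Pvalb difference was not tested.

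**Figure D3:**
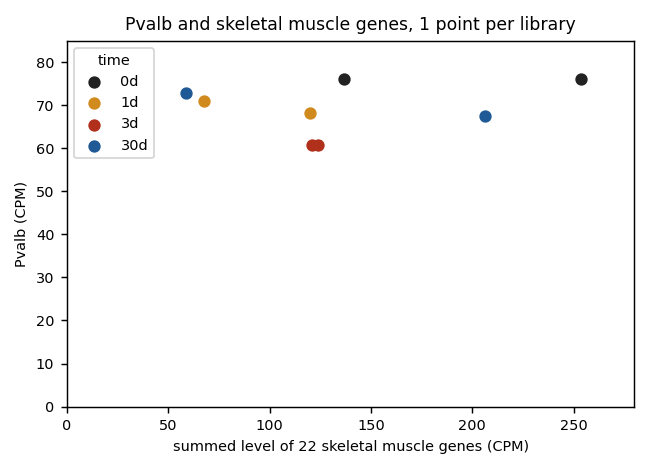
Level of Pvalb against the summed level of 22 skeletal muscle genes, both in CPM, with 1 point per library coloured by time point. The 2 black 0d points lie at Pvalb levels of 76.1 and 76.2 CPM at muscle sums of 137 and 254 CPM, and the 2 red 3d points lie lowest at 60.7 CPM.

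Calb1 (chromosome 4, 15881264 to 15906709, plus strand) encodes calbindin and Calb2 (chromosome 8, 110142538 to 110168206, minus strand) calretinin, both calcium buffers with EF-hand domains. The level of Calb2 was 20.7 and 18.4 CPM in the 0d libraries, 16.4 and 17.7 in those of 1d, 14.5 and 14.7 in those of 3d, and 18.4 and 18.7 in those of 30d. The 3d libraries were the lowest of the 8, and those of 0d and 30d overlapped. Its log2 difference at 3d against 0d, -0.42 (SE 0.097, interval -0.63 to -0.22), was larger than that of Pvalb but less precise, and did not pass (edgeR adjusted p = 0.129). DESeq2 gave an adjusted p of 0.0480 for the same difference.

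Calb1 was at 44.1 and 45.7 CPM in the 0d libraries, 44.6 and 44.9 in those of 1d, 39.8 and 42.0 in those of 3d, and 46.2 and 40.8 in those of 30d. Its 3d libraries lay below those of 0d and 1d, and the 30d pair spanned nearly the whole range. The log2 difference at 3d was -0.13 (interval -0.28 to 0.017, edgeR adjusted p = 0.888). As a share of the summed length-scaled level of Pvalb, Calb1 and Calb2, Pvalb held 74.2% at 0d (SD 0.475, n = 2), 73.7% at 1d, 73.3% at 3d and 73.4% at 30d. Across time points, these shares moved by no more than the spread of the 30d pair (SD 1.84).

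Other EF-hand genes served as a comparison. Of 24 listed, 22 were tested, and 18 of those had a negative log2 fold change at 3d against 0d, with a median of -0.060. None was called in any of the 5 comparisons by edgeR (0.0231% to 0.935% of all genes), with 0 to 4 at an unadjusted p under 0.05 (4.24% to 13% of all genes). DESeq2 called 1, at 30d against 3d (2.64% of all genes). Calm2 and Calm3, which encode the ubiquitous calcium sensor calmodulin, were among the highest of this list per kilobase, with log2 differences of -0.017 and -0.068 at 3d. The 12 large-fibre and proprioceptor genes likewise held no edgeR call in any of the 5 comparisons, against the same shares of all genes. At an unadjusted p under 0.05 there were 4 of the 12 at 30d against 3d (13% of all genes), where DESeq2 called 1 (2.64% of all genes). In the other comparisons there were 0 to 2 (4.24% to 12.3% of all genes). Their median log2 fold change at 3d was -0.030, with 10 of 12 negative. The values were -0.041 for Nefl, -0.020 for Nefm and -0.0032 for Nefh. The 2 at an unadjusted p under 0.05 at 3d were the transcription factor genes Runx3 (-0.29, SE 0.097, edgeR adjusted p = 0.513) and Etv1 (-0.18, SE 0.057, edgeR adjusted p = 0.482).

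Slc17a7 (chromosome 7, 45163921 to 45176139, plus strand) encodes vesicular glutamate transporter 1, the transporter of large-fibre terminals. Its level was 307 and 297 CPM in the 0d libraries, 292 and 283 in those of 1d, 272 and 268 in those of 3d, and 294 and 326 in those of 30d. The 3d libraries were again the lowest, the 0d and 30d libraries overlapped, and the 1d libraries lay between. At 3d against 0d the log2 difference was -0.16 (SE 0.048, interval -0.26 to -0.059), and it did not pass (edgeR adjusted p = 0.401, DESeq2 0.198). From 3d to 30d it was 0.20 (interval 0.097 to 0.30). That difference did not pass in edgeR (adjusted p = 0.0728) but did in DESeq2 (0.00828) and in edgeR without the filter on low counts (0.0105).

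Slc17a8 (chromosome 10, 89574020 to 89621249, minus strand) encodes vesicular glutamate transporter 3, found in C-fibre low-threshold mechanoreceptors. It had 11.4 and 15.6 CPM in the 0d libraries, 13.8 and 14.7 in those of 1d, 13.4 and 12.6 in those of 3d, and 13.5 and 12.3 in those of 30d. The 0d pair, which differed 1.36-fold, spanned every other library, so no order of time points could be read. The log2 difference at 3d was -0.056 with an interval of -0.34 to 0.23 (edgeR adjusted p = 0.999).

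Slc17a6 encodes vesicular glutamate transporter 2, the main isoform of many small-diameter neurons, and belongs to the comparison list. On the length scale, Slc17a7 made up 64.8% of the 3 transporters at 0d (SD 1.42), 62.9% at 1d (SD 0.843), 60.8% at 3d (SD 0.140) and 65.4% at 30d (SD 1.54). Slc17a6 made up 33.3%, 35.0%, 37.3% and 32.8% at the same time points, and Slc17a8 between 1.80% and 2.06%. The 3d shares of Slc17a7 (60.7% and 60.9%) lay below all 6 other libraries (62.3% to 66.5%). The log2 difference of Slc17a6 itself at 3d was 0.094 (edgeR adjusted p = 0.764). None of the 9 genes of glutamate loading, synthesis and uptake on this list was called in any comparison by edgeR (0.0231% to 0.935% of all genes) or DESeq2 (0.564% to 2.64%). At an unadjusted p under 0.05 there were 3 of the 9 at 3d against 0d (5.94% of all genes). In the other comparisons there were 0 to 2 (4.24% to 13% of all genes). The log2 differences at 3d were 0.33 for Glul (glutamine synthetase) and 0.11 for Slc38a2 (a glutamine carrier).

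**Figure D4:**
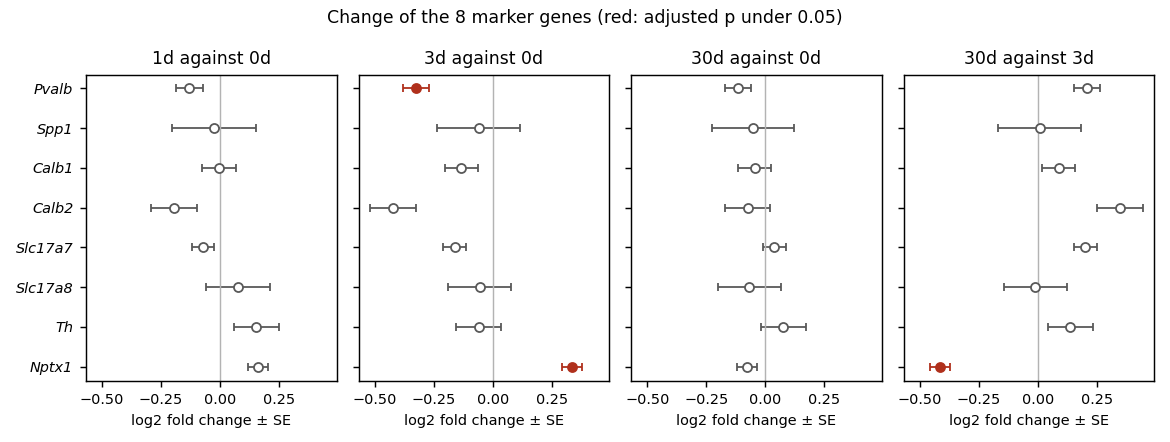
Log2 fold change ± SE of the 8 genes in 4 comparisons, with filled red points where the edgeR adjusted p was under 0.05. Red points mark Pvalb (-0.33) and Nptx1 (0.33) at 3d against 0d and Nptx1 (-0.41) at 30d against 3d.

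Th (chromosome 7, 142892776 to 142899966, minus strand) encodes tyrosine hydroxylase, the rate-limiting enzyme of catecholamine synthesis. Its level was 84.0 and 94.5 CPM in the 0d libraries, 96.1 and 103 in those of 1d, 87.3 and 84.0 in those of 3d, and 104 and 84.3 in those of 30d. Both 1d libraries exceeded those of 0d and 3d, and the 30d pair, 1.23-fold apart, covered nearly the full range. The log2 difference was 0.15 at 1d (interval -0.064 to 0.37), -0.060 at 3d (interval -0.28 to 0.16) and 0.076 at 30d (interval -0.14 to 0.29), and none passed (edgeR adjusted p = 1.00, 0.999 and 0.788).

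Sympathetic neurons also make tyrosine hydroxylase. Of 11 sympathetic marker genes, 7 were under 1 CPM in every library, and the 11 summed to between 21.1 and 28.1 CPM. The summed ranges were 21.1 to 23.8 at 0d, 21.4 to 28.1 at 1d, 24.4 to 26.2 at 3d and 22.1 to 23.1 at 30d. At 1d against 0d all 6 tested genes of the list had a positive log2 fold change, with a median of 0.42, beside -0.0032 over all genes. At 3d against 0d 5 of the 6 were positive, with a median of 0.080. Dbh, dopamine beta-hydroxylase, reached at most 0.114 CPM. The part of sympathetic RNA in the Th level was not tested. The list was led per kilobase by Chrna3, Chrnb4 and Gata2. None of its 6 tested genes was called in any comparison by edgeR (0.0231% to 0.935% of all genes) or DESeq2 (0.564% to 2.64%). At an unadjusted p under 0.05 there were 0 to 2 (4.24% to 13% of all genes). Of the 14 genes of catecholamine synthesis, transport and breakdown, 11 were tested and none was called by edgeR (0.0231% to 0.935% of all genes). At an unadjusted p under 0.05 there were 0 to 2 (4.24% to 13% of all genes). DESeq2 called 1 at 30d against 0d (1.16% of all genes). Qdpr and Spr, which serve the tetrahydrobiopterin cofactor, were the highest of this list per kilobase, with log2 differences at 3d of 0.021 and 0.022.

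The 3 genes most like Th over the 8 libraries were Acpp (Pearson r = 0.97), Kcnk18 (0.94) and Mmp25 (0.92), among 12079 genes with a mean of at least 5 CPM. The 12 low-threshold mechanoreceptor genes were led by the receptor gene Ret, the co-receptor gene Gfra2 and the touch channel gene Piezo2. Their median log2 difference between 3d and 0d was -0.017, beside -0.0021 over all genes. There edgeR called 0 (0.219% of all genes) and DESeq2 0 (0.564%), and 2 had an unadjusted p under 0.05 (5.94% of all genes). Ret fell by 0.22 on the log2 scale from 3d to 30d (SE 0.048, edgeR adjusted p = 0.0477) and was the single gene of that list called in any comparison (0.727% of all genes were called lower there). In that comparison 8 of the 12 had a positive log2 fold change, with a median of 0.018.

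Spp1 (chromosome 5, 104435111 to 104441053, plus strand) encodes osteopontin, a secreted phosphoprotein of bone, macrophages and large sensory neurons. The level was 159 and 140 CPM in the 0d libraries, 146 and 147 in those of 1d, 143 and 144 in those of 3d, and 119 and 169 in those of 30d. The 30d pair contained all the other libraries between its ends, and the means of the time points lay between 143 and 149 CPM. The log2 difference was -0.026 at 1d, -0.060 at 3d and -0.053 at 30d, and the 30d interval ran from -0.52 to 0.41 (edgeR adjusted p = 1.00, 0.999 and 0.931). Without 30d replicate 2, the 30d value became -0.33 and passed (edgeR adjusted p = 0.0243), and without 30d replicate 1 it was 0.17. Whether the 30d value passed, and its sign, rested on which library was kept. In the reference transcripts, 9.05% of the 50-base words of Spp1 are shared with Gm42793, so a part of its reads could have been assigned to either gene or left uncounted.

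Marker lists of other cells that can hold Spp1 were measured in the same libraries. The 14 macrophage genes, none at 0 in every library, summed to 186 to 199 CPM at 0d, 202 to 208 at 1d, 194 to 200 at 3d and 199 to 219 at 30d, led by Lyz2, C1qa and C1qb. Cx3cr1, a chemokine receptor gene, fell at 3d against 0d (log2 fold change -1.02, SE 0.145, edgeR adjusted p = 0.00794) and against 1d (-0.75, edgeR adjusted p = 0.0476), and was the only one called (0.0289% of all genes were called lower at 3d against 0d, and 0.289% in either direction against 1d). At 3d against 0d, 9 of the 14 had a positive log2 fold change, with a median of 0.031. The 13 bone and cartilage genes, led by Alpl, Ibsp and Chad, summed to between 32.5 and 41.6 CPM, with 6 under 1 CPM in every library. None of them was called in any comparison by edgeR (0.0231% to 0.935% of all genes) or DESeq2 (0.564% to 2.64%). At an unadjusted p under 0.05 there were 3 at 3d against 0d (5.94% of all genes). In the other comparisons there were 0 to 2 (4.24% to 13% of all genes). The 11 glial genes, with the lipid carrier gene Apoe and the myelin gene Pmp22 among the highest per kilobase, summed to 14224 and 11431 CPM in the 0d libraries, 10943 and 11106 in those of 1d, 12334 and 12292 in those of 3d, and 8391 and 10701 in those of 30d. In the 30d pair, the library with more Spp1 (1.41-fold) also had the higher glial sum. The part of glial RNA in the Spp1 spread was not tested. Apoe fell at 30d against 0d and against 3d (log2 fold change -0.28 and -0.23, edgeR adjusted p = 0.0322 and 0.0128). In these comparisons 0.0231% and 0.935% of all genes were called.

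Nptx1 (chromosome 11, 119538719 to 119547820, minus strand) encodes neuronal pentraxin 1, a secreted protein that gathers glutamate receptors at synapses. The level was 271 and 276 CPM in the 0d libraries, 308 and 303 in those of 1d, 348 and 342 in those of 3d, and 269 and 250 in those of 30d. The 4 time points did not overlap at all, in the order 3d, 1d, 0d and 30d from high to low. At 3d Nptx1 rose by 0.33 on the log2 scale against 0d (SE 0.043, interval 0.24 to 0.43, edgeR adjusted p = 0.00630). That call was lost without 3d replicate 1 or 3d replicate 2 (adjusted p = 0.143 and 0.110), with log2 fold changes of 0.32 and 0.35. From 3d to 30d it fell by 0.41 (SE 0.043, interval -0.51 to -0.32, edgeR adjusted p = 0.000471), where 0.935% of all genes were called (0.727% lower).

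At 1d, the log2 difference of Nptx1 from 0d was 0.16 (interval 0.068 to 0.25, edgeR adjusted p = 0.306), and from 1d to 3d it was 0.17 (interval 0.083 to 0.27, edgeR adjusted p = 0.183). Neither passed, and DESeq2 gave adjusted p = 0.0925 and 0.0383. At 30d against 0d the difference was -0.079 (interval -0.17 to 0.013, edgeR adjusted p = 0.481). The comparisons with 0d share its 2 libraries, as those with 3d share theirs.

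Nptx2, a related secreted pentraxin gene, and Nptxr, the membrane-bound pentraxin receptor gene, were the other neuronal members of the family. Nptx2 was at 113 and 124 CPM in the 0d libraries, 144 and 163 in those of 1d, 177 and 178 in those of 3d, and 130 and 93.4 in those of 30d. Its 3d libraries were the highest and its 1d libraries next, while the 30d pair lay on either side of the 0d pair. The log2 difference at 3d was 0.58, larger than that of Nptx1, but with an SE of 0.176 it did not pass (edgeR adjusted p = 0.726, DESeq2 0.221). Between 3d and 30d it was -0.66 (edgeR adjusted p = 0.254, DESeq2 0.0246).

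Nptxr was at 224 and 238 CPM in the 0d libraries, 260 and 274 in those of 1d, 278 and 268 in those of 3d, and 237 and 222 in those of 30d. The 1d and 3d libraries overlapped and lay above those of 0d and 30d. Against 0d the log2 difference at 3d was 0.24 (SE 0.048, edgeR adjusted p = 0.0688), and at 1d it was 0.21 (edgeR adjusted p = 0.117). DESeq2 called both (adjusted p = 0.00201 and 0.0119). Nptxr then fell from 3d to 30d by 0.25 (SE 0.047, edgeR adjusted p = 0.0234), where 0.727% of all genes were called lower. Of the short pentraxins on the list, Crp and Apcs were not tested, and Ptx3 had a mean of 0.698 CPM. On the length scale, Nptx1 made up 35.7% of Nptx1, Nptx2 and Nptxr together at 0d (SD 0.951), 33.7% at 1d, 34.4% at 3d and 35.3% at 30d, with the largest spread at 30d (SD 1.94).

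**Figure D5:**
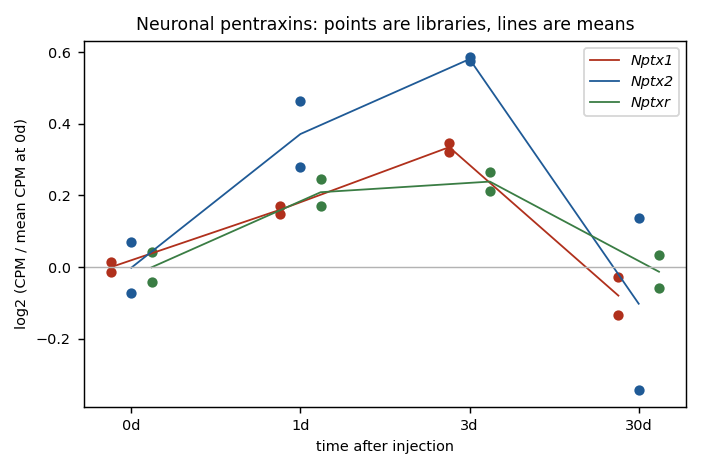
Level of Nptx1, Nptx2 and Nptxr in each library as log2 of CPM over the gene's mean CPM at 0d, against time after injection; points are libraries and lines join the means. All points of 1d and 3d lie above 0, and the 30d points of each gene lie around or below 0.

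Nociceptor genes were a further neuronal list measured. Of the 10 tested, 9 had a positive log2 fold change at 3d against 0d (median 0.13, beside -0.0021 over all genes), and Calca, the gene of a peptide transmitter of pain fibres, and Scn10a, a sodium channel gene of nociceptors, rose (0.32 and 0.22, edgeR adjusted p = 0.0237 and 0.0499), where 0.19% of all genes were called higher. From 3d to 30d, 9 had a negative value, and Calca, Tac1 (substance P) and Trpa1 (an irritant channel) fell by 0.43, 0.28 and 0.37 (edgeR adjusted p = 0.00201, 0.0110 and 0.00491), where 0.727% of all genes were called lower. The 3 genes most like Nptx1 over the 8 libraries were Etv5 (Pearson r = 0.99), Pappa (0.98) and Arrb1 (0.98).

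The genes most like the other members were found in the same way, over the same 8 libraries, which share their depth and their dissections. For Pvalb they were Anapc5 (0.96), Vamp1 (0.96), a synaptic vesicle protein gene, and Fam114a1 (0.96). For Slc17a7 they were Snap25 (0.98), a gene of the synaptic release machinery, Esrrg (0.97), a nuclear receptor gene, and Tubgcp3 (0.97). For Calb1 they were Yipf5 (0.99), Prrxl1 (0.95), a homeobox gene of sensory neurons, and Ppp1r12c (0.95). For Calb2 they were Hdac5 (0.94), Fam173b (0.94) and Sox6 (0.94). For Slc17a8 they were Pdxp (0.97), Ppp6r1 (0.96) and Neurl1a (0.95), and for Spp1 Imp3 (0.97), 2310033P09Rik (0.96) and Wdr24 (0.95). With 8 libraries and 12079 genes ranked, such values describe these libraries only.

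Read over the 8 genes, the comparisons with 0d stood as follows. At 1d edgeR called 0 of the 8, where 0.346% of all genes were called, with 2 members at an unadjusted p under 0.05 (Pvalb and Nptx1; 4.47% of all genes) and 0 in DESeq2 (0.618% of all genes). The 1d libraries did not overlap those of 0d for 5 members, 3 lower and 2 higher, where 31.9% of all genes did not overlap (16.4% lower and 15.5% higher). At 3d, 4 members had an unadjusted p under 0.05 (Pvalb, Calb2, Slc17a7 and Nptx1; 5.94% of all genes) and 5 did not overlap, 4 lower and 1 higher, where 39.5% of all genes did not overlap (19.6% lower and 19.9% higher). DESeq2 called 3, with Calb2 added, and 0.564% of all genes with an adjusted p. At 30d edgeR called 0, where 0.0231% of all genes were called, with 1 at an unadjusted p under 0.05 (Pvalb; 12.3% of all genes) and 0 in DESeq2 (1.16% of all genes). For 2 members, Pvalb and Nptx1, both 30d libraries lay below those of 0d, as for 20.2% of all genes (39.6% in either direction).

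Between injected time points, all 8 genes separated 3d from 1d without overlap, 7 lower and Nptx1 higher, where 37.6% of all genes did not overlap (17.6% lower and 20% higher). Even so edgeR called 0 of them, where 0.289% of all genes were called. At an unadjusted p under 0.05 there were 3 (Pvalb, Calb2 and Nptx1; 4.24% of all genes), and DESeq2 called 1, Nptx1 (0.695% of all genes). The largest log2 differences that did not pass were -0.23 for Calb2 (interval -0.44 to -0.017), -0.21 for Th (interval -0.43 to 0.0035) and -0.20 for Pvalb (interval -0.31 to -0.078). A fit of the 1d and 3d libraries alone called Pvalb, Th and Nptx1 (edgeR adjusted p = 0.0488, 0.0149 and 0.0125), and 1.55% of all genes it tested. From 3d to 30d, 4 members did not overlap, where 46.4% of all genes did not. Pvalb, Calb2 and Slc17a7 were higher (22.9% of all genes) and Nptx1 was lower (23.5%) at 30d. These 4 also had an unadjusted p under 0.05, as did 13% of all genes. DESeq2 called 3, Pvalb, Slc17a7 and Nptx1, and 2.64% of all genes. The median log2 fold change of the 8 genes was then 0.11, beside 0.00048 over all genes.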

How the data were processed

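RNA of 8 libraries, 2 pools at each of 4 time points, was sequenced from dissected DRG. Per the labels and the file headers, the authors used cutadapt 2.10 for trimming, STAR 2.7.5a for alignment (mm10) and, to count read pairs on UCSC exons, featureCounts 2.0.1 without strand, giving a pair that overlapped several genes to each. The deposited values are raw counts per gene, and the deposited length of each gene (another unit, in bases) was used for values per kilobase. Libraries were matched to samples by column name.

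Counts were analyzed in R 4.3.3 with edgeR 4.0.16 (filterByExpr, TMM, quasi-likelihood F-test with robust estimation), with all 8 libraries and the time point as the only term. The Benjamini-Hochberg adjustment ran over all 17328 tested genes, and a gene was called at an adjusted p under 0.05. SEs were derived from the F statistic and the fold change. CPM used TMM-scaled library sizes (factors 0.993 to 1.01), and log2 CPM a prior count of 2. With 2 against 2 libraries an exact permutation test cannot give a p below 0.333, so none was run. DESeq2 1.42.0, 5 other settings and the omission of each library were alternatives. In simulated counts for 3d against 0d, with 200 of 17328 genes changed, edgeR called 10% of those changed by 0.25, 68% by 0.5, 90% by 1 and 100% by 2 on the log2 scale. The changed genes were drawn over a wide range of levels, with the spread typical of each level (the trended dispersion). The spread of a member can differ from that (coefficient of variation 8.59% for Spp1, against a trended 4.72%). The rates are therefore not those of the 8 members.

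The members and gene lists were chosen with earlier results of these data known. Named are the 8 members, of each list the 3 genes highest per kilobase and those called in any comparison, and the 3 genes most correlated with each member. Results for some of these are not reported here. Dbh, Slc17a6, Runx3, Etv1, Crp and Apcs are named in addition, after their values were seen. The lists cover large-fibre and proprioceptor, low-threshold mechanoreceptor, nociceptor, EF-hand, glutamate transport, pentraxin, catecholamine, sympathetic, skeletal muscle, macrophage, bone and glial genes. No exon of a member overlaps another gene, and promoter sequences are from RefSeq, GRCm38.p6.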

Additional observations from a re-analysis of the deposited data

Results flagged for a closer look

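The log2 fold change of Nptx1 from 3d to 30d was -0.41, and it stood opposite to that from 0d to 3d (0.33). It is listed because the rule took each member called by edgeR in the direct comparison of 3d with 1d or of 30d with 3d. Nptx1 from 3d to 30d was the only such call. That call (edgeR adjusted p = 0.000471) is thus the reason for the listing and no separate evidence, and both fold changes use the 3d libraries. The difference between 3d and 30d was called in all 6 other settings. In the 8 fits that left out a library its log2 fold change ranged from -0.47 to -0.36.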

How the results depend on the processing

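The 6 other settings (RLE size factors, no filter on low counts, DESeq2, no robust estimation, the compared groups alone and the replicate block) reversed no fold change of a member. Under them, 231 member values kept their side of the threshold, 8 gained a call and 1 lost it. The number of members called at 3d against 0d was 1 without robust estimation and 3 with DESeq2, at 3d against 1d 1 with DESeq2 and 3 with the compared groups alone, and at 30d against 3d 2 without the filter and 3 with DESeq2. Leaving out each library gave 0 to 3 members at 3d against 0d, 0 to 1 at 30d against 0d and 1 to 3 at 30d against 3d. The number of all genes called was less stable. Without the filter it was 95 at 1d, 89 at 3d and 177 at 30d against 0d, 99 at 3d against 1d and 358 at 30d against 3d. DESeq2 gave 105, 107, 184, 110 and 376 in the same order. Without robust estimation it was 20 at 3d, 0 at 30d against 0d and 92 at 30d against 3d. With the compared groups alone it was 121 at 3d, 0 at 30d against 0d, 260 at 3d against 1d and 273 at 30d against 3d. Leaving out each library gave 26 to 111 at 1d, 1 to 121 at 3d and 1 to 202 at 30d against 0d, 5 to 117 at 3d against 1d, and 12 to 525 at 30d against 3d. The cause was not tested. With the settings used for the report these counts were 60, 38, 4, 50 and 162.

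Replicate numbers did not pair the libraries, since deviations of same-numbered libraries correlated between -0.014 and 0.044. The fit with the replicate block called 2 members at 3d against 0d and 1 at 30d against 3d, as without it, and 69 genes of all at 30d against 0d and 77 at 3d against 1d.

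Leaving out a library turned 21 small values that had not passed. At 1d against 0d the ranges were -0.11 to 0.067 for Spp1, -0.028 to 0.022 for Calb1 and -0.12 to 0.32 for Slc17a8. At 3d against 0d they were -0.15 to 0.032 for Spp1, -0.26 to 0.18 for Slc17a8 and -0.14 to 0.029 for Th. At 30d against 0d they were -0.33 to 0.17 for Spp1, -0.14 to 0.040 for Calb1, -0.16 to 0.014 for Calb2, -0.039 to 0.11 for Slc17a7, -0.27 to 0.17 for Slc17a8 and -0.085 to 0.22 for Th. At 30d against 3d they were -0.27 to 0.23 for Spp1, -0.0047 to 0.17 for Calb1, -0.082 to 0.055 for Slc17a8 and -0.025 to 0.28 for Th. The least counted value of any member in any library was 605 counts, and counting error was not separated from the spread between pools.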
